A study of Danio rerio with 20 samples.

Results

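Rbp4 and rbp2a are 2 zebrafish (Danio rerio) genes that encode retinol-binding proteins. Each was measured by 1 probe (5270390 for rbp4 and 5270533 for rbp2a), chosen by its symbol in the platform annotation, among 16512 probes that gave 15780 features after probes of 1 gene were averaged. Of the 5356 features with a gene name, these are 2. The series set 10 arrays of carcinogen-induced liver tumors, titled T, against 10 arrays titled C, read here as the normal livers that its design text names. Every array carried its liver sample in Cy5 and normal liver RNA in Cy3, and 1 rearing protocol is given for all samples. The sources used here do not name the carcinogen, the strain, the age or the sex of the fish, nor do they say whether an array stands for 1 fish or for pooled tissue. The p-values therefore measure the spread between these arrays, which may be partly technical. Values are log2 ratios, likely of the liver sample to the reference, so that 0 is the level of the reference RNA and negative values lie below it. If the ratio ran the other way, every sign below would turn, and levels given below as a share of the reference would be its inverse.

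Rbp4 encodes the retinol carrier of blood plasma. In mammals it is made mainly by hepatocytes, which load it with retinol from their own supply or from the fat-storing stellate cells, and it travels bound to transthyretin. Rbp2a encodes a cellular retinol-binding protein, related to the type of mammals that is abundant in the absorptive cells of the intestine, where it holds retinol for esterification. Both proteins fold into a barrel around the ligand, but rbp4 belongs to the secreted lipocalins and rbp2a to the intracellular lipid-binding proteins.

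Both genes were taken up because they stood among the largest decreases in tumors, so their tumor minus normal difference is given as a description without a test. On the normal arrays rbp4 had its lowest value at -2.58, its median at -0.82 and its highest at 0.11. On the tumor arrays the lowest was -6.17, the median -4.90 and the highest -3.11. All 10 tumor arrays lay below every normal array, and the gap between the highest tumor (replicate 9) and the lowest normal liver (replicate 7) was 0.53. Tumors held 3.38% of the reference level (geometric mean, 1.39% to 11.6% on single arrays), and normal livers held 55.2% (16.7% to 108%). With the ratio turned, tumors would hold 29.6 times and normal livers 1.81 times the reference level. The difference of the group means was -4.03 ± 0.36 (SE from limma, n = 10 per group), and normal liver was 16.3-fold above tumor.

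Rbp2a was at a lowest of -0.33, a median of 0.34 and a highest of 0.94 on the normal arrays. On the tumor arrays it ran from -4.97 through a median of -2.76 to -1.10. The groups again did not overlap, with a gap of 0.78 between tumor replicate 4 and normal replicate 8. Tumors held 13.6% of the reference level (geometric mean, 3.20% to 46.5%) and normal livers 129.9% (79.6% to 192%). With the ratio turned, these levels would be 7.34 and 0.770 times the reference. The difference was -3.25 ± 0.40 (SE, n = 10 per group), or 9.54-fold. Over all features, the tumors lay below every normal array in 60 of 15780, or 0.380%, and 4.94% passed the adjusted threshold of limma with a lower level in tumors. In the order of the difference over the 5356 named features, counted from the largest decrease, rbp4 was at place 2 and rbp2a at place 5. With the ratio turned, these would be their places from the largest increase. The alcohol dehydrogenase gene adh8a (-4.31 ± 0.59) stood before rbp4. The desaturase gene fads2 (-3.73 ± 0.50) and the apolipoprotein gene apoa1a (-3.63 ± 0.44) lay between rbp4 and rbp2a. The glycolytic gene gapdh (-3.25 ± 0.38) and the gluconeogenic gene fbp1b (-3.14 ± 0.44) followed.

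**Figure D1:**
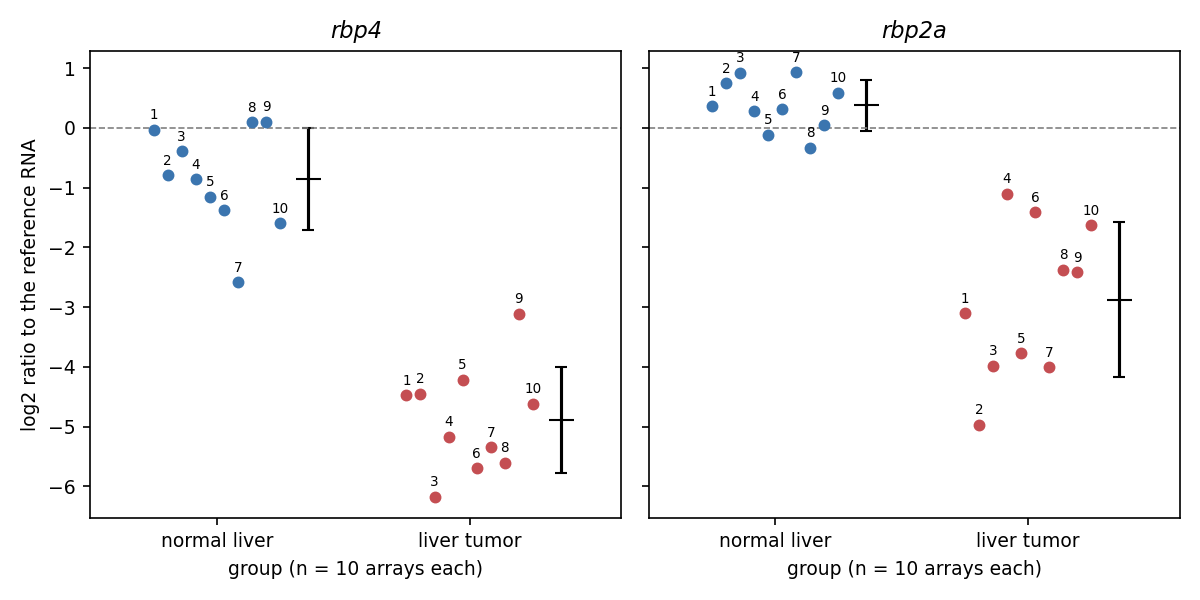
Log2 ratio to the reference RNA (y axis) of rbp4 and rbp2a on every array, with the replicate number beside each point and the mean ± SD of the group as a black bar (n = 10). All tumor points lie below all normal points in both panels, at -3.11 or lower for rbp4 and at -1.10 or lower for rbp2a.

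The place of a gene within its array gives the same values without a scale. Counted from the lowest ratio of the 15780 features, rbp4 stood between place 3 and place 95 on the tumor arrays (median 8). It was at place 3 on tumor replicates 6 and 8, and at place 95 on tumor replicate 9. On the normal arrays it stood anywhere from place 202 (replicate 7) to place 11069 (replicate 9), with a median of 1108. Rbp2a stood between place 7 (tumor replicate 5) and place 1126 (tumor replicate 10) in the tumors and between place 3724 and place 15190 in the normal livers. The lowest of these places were therefore close to the bottom of the array in both genes, while normal livers held rbp4 at low and middle places and rbp2a at middle and high ones. No value of either gene on any array was a ratio of 2 small whole numbers, the pattern taken here to mark dim spots. The whole numbers tried were no larger than 10, so very low ratios had no quotient to match. Most tumor values of rbp4 and the lowest tumor values of rbp2a were that low. Whether those values came from dim spots was therefore not tested.

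Facts that differ between the arrays stand beside these values. The share of values on an array that were a ratio of 2 small whole numbers is called its dim share. It averaged 5.86% on the normal arrays (2.55% to 7.87%) and 1.96% on the tumor arrays (0.654% to 7.16%). Only tumor replicates 9 and 10 reached the range of the normal arrays, so the share largely follows the group. Signal brightness is not given. On tumor replicates 3, 4, 5, 6 and 8 a log base of 10 matched at least as many values as base 2. Tumor replicate 9, on which rbp4 was highest among the tumors, also had the highest dim share of the tumors, 7.16%. Across tumors the Pearson correlation of rbp4 with the dim share was 0.74 (permutation p = 0.0207, adjusted p = 0.207 over 10 relations). The Spearman correlation was 0.38 (permutation p = 0.280), and without tumor replicates 9 and 10 the Pearson correlation was 0.25. For rbp2a the Pearson correlation across tumors was 0.12 (permutation p = 0.786, adjusted p = 0.882) and the Spearman correlation -0.37 (permutation p = 0.292). Without tumor replicates 9 and 10 the Pearson correlation of rbp2a was -0.77 (permutation p = 0.0330, not adjusted). Once that share entered the fit as a covariate, the difference was -3.60 ± 0.52 for rbp4 and -2.88 ± 0.58 for rbp2a. Normal replicate 8 correlated less with the other normal arrays (mean r 0.186) than any other array of that group did. Leaving out normal replicate 8 and tumor replicate 10 gave -3.95 ± 0.39 for rbp4 and -3.47 ± 0.41 for rbp2a. Leaving out tumor replicates 1 and 10, the tumors highest in intestine markers, gave -4.12 ± 0.40 and -3.38 ± 0.42.

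The samples are pieces of tissue, in which fewer cells of a type and less RNA per cell cannot be told apart. Markers of hepatocytes were therefore set beside the carriers. Of 13 measured hepatocyte markers 9 fell in tumors by limma and 0 rose, where 4.94% of all features were called lower and 5.91% higher. Once the dim share was fitted, limma called 54 of all 15780 features, 11 higher and 43 lower. In that fit 2 of the 9 markers (apoa1a and mat1a) kept the call. Hp also lost its call when tumor replicates 1 and 10 were left out (limma, adjusted p = 0.0577). At an unadjusted p of 0.05, 10 of the 13 markers were lower and 0 higher, and the rank-sum test called 10 lower and 0 higher. Over all 15780 features the rank-sum test called 1862 in either direction. The share of all features under an unadjusted p of 0.05 is not given, here or for the lists below. The median difference of the markers was -1.49, against -0.00861 over all features. Mat1a, which makes the methyl donor of the liver, changed by -2.49 ± 0.29, and fabp10a, the fatty acid binding protein of fish hepatocytes, by -3.11 ± 0.66 (adjusted p = 0.00429 with limma). In the same list, the transcription factor hnf4a had a difference of -0.09 ± 0.29 (adjusted p = 0.870 with limma). The mean of the 13 markers ran from -0.33 to 0.25 on the normal arrays and from -2.51 to -0.61 on the tumor arrays, so the groups did not overlap in it either. After this mean was subtracted on each array, rbp4 differed by -2.36 ± 0.38 (SE) and rbp2a by -1.58 ± 0.58, and 7 of 10 tumors lay below every normal liver for each gene.

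Single tumors show how the carriers stood apart from that mean. On tumor replicates 4, 6 and 10 the hepatocyte mean was lowest, at -2.31, -2.51 and -2.51, and rbp2a was highest, at -1.10, -1.41 and -1.63. In these 3 tumors rbp2a was above the marker mean, by 0.88 to 1.20. In the other 7 tumors it was below the marker mean, by the most on tumor replicate 2, where rbp2a stood at -4.97 and the markers at -1.23. Rbp4 was below the marker mean on all 10 tumor arrays, from -4.84 relative to it on replicate 3 to -2.11 on replicate 10. On the normal arrays rbp4 ran from -2.78 to 0.05 relative to that mean, with a median of -0.81. Lying below the mean was therefore not particular to tumors. Rbp2a ran from -0.52 to 1.26 relative to it on the normal arrays. Across tumors the Pearson correlation of rbp2a with the marker mean was -0.52 (Spearman -0.55, permutation p = 0.122 and 0.105, adjusted p = 0.341 and 0.552 over 10 relations). For rbp4 it was 0.45 (Spearman 0.52, permutation p = 0.188 and 0.133, adjusted p = 0.377 and 0.552). Without the 2 tumors farthest from the median of the marker mean, replicates 9 and 10, the values were -0.66 and 0.26, so neither relation passed.

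**Figure D2:**
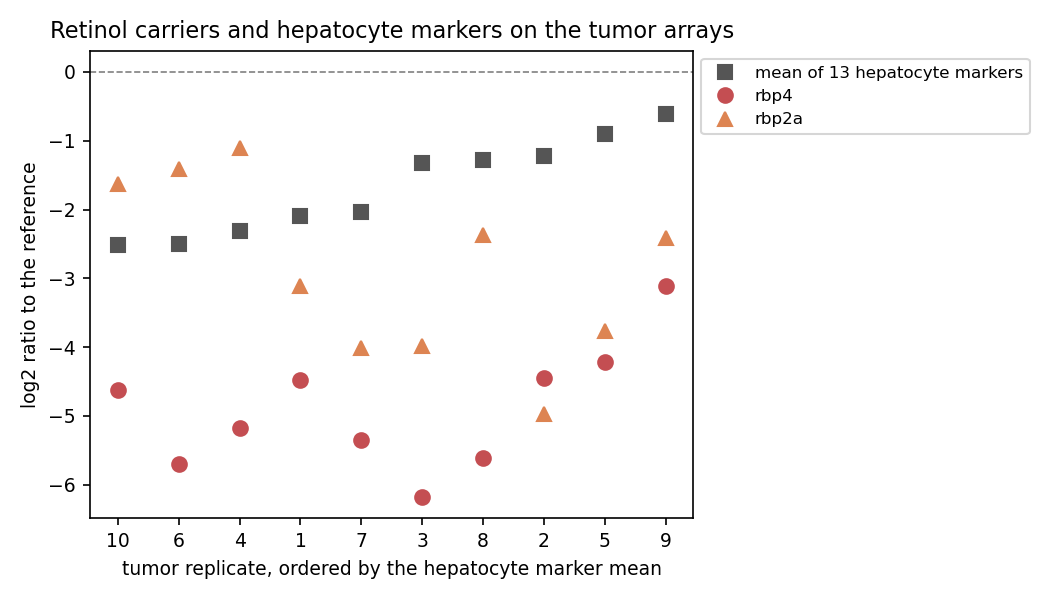
Log2 ratio to the reference (y axis) of rbp4, rbp2a and the mean of 13 hepatocyte markers on each of the 10 tumor arrays, ordered by the marker mean. Rbp2a lies above the marker mean on tumor replicates 10, 6 and 4 and below it elsewhere, while rbp4 lies below it on all 10.

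Rbp4 and rbp2a did not keep step within a group. On tumor replicate 6 rbp4 was at -5.70, its second lowest value, and rbp2a at -1.41, its second highest. On tumor replicate 4, which had the highest rbp2a of the tumors (-1.10), rbp4 was at -5.17, near its median. On tumor replicate 2 the order turned, with rbp4 at -4.45 and rbp2a at -4.97, its lowest value. Across the 10 tumors the correlation was -0.05 (Spearman -0.19, permutation p = 0.882 and 0.605, adjusted p = 0.882 and 0.756), and -0.49 without tumor replicates 3 and 9. Across the normal livers it was -0.50 (Spearman -0.45, permutation p = 0.135 and 0.191, adjusted p = 0.341 and 0.552). Normal replicate 7 had the lowest rbp4 of its group, -2.58, with the highest rbp2a, 0.94, and without normal replicates 7 and 9 the correlation was -0.20. Neither relation between the genes passed within its group.

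**Figure D3:**
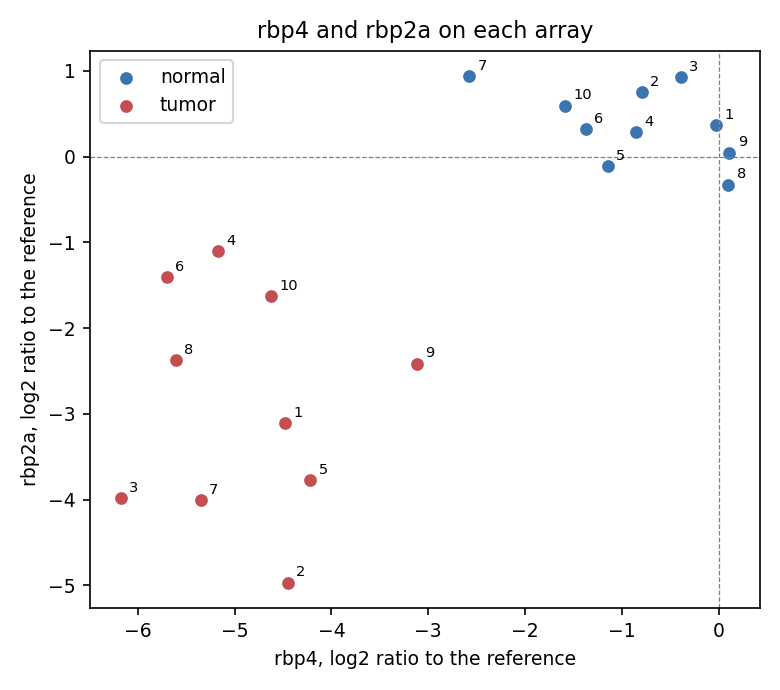
Rbp2a (y axis) against rbp4 (x axis), both as log2 ratios to the reference, on the 10 normal and 10 tumor arrays, with replicate numbers. The groups lie in separate clouds, and within the tumors replicates 4 and 6 have the highest rbp2a (-1.10 and -1.41), with rbp4 at -5.17 and -5.70.

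The spread within a group was not the measure that chose the genes, though it comes from the same arrays. It differed between the 2 genes. Rbp2a varied more among tumors, with an SD of 1.29 against 0.43 among normal livers. Its mean absolute deviation from the group median was 1.09 in tumors and 0.338 in normal livers, a difference of 0.75 (two-sided permutation p = 0.00148 with n = 10 per group, adjusted p = 0.00296 over the 2 genes). The ratio between its highest and lowest tumor was 14.5-fold, against 2.41-fold between normal livers. Rbp4 had SDs of 0.89 and 0.86, and its mean absolute deviation differed by 0.06 (permutation p = 0.793, adjusted p = 0.793). Among all features, 1.54% had a ratio of tumor SD to normal SD at least as high as that of rbp2a, 3.01, and the median ratio was 0.864. The normal SD of rbp2a was at percentile 48.5 of all features and that of rbp4 at percentile 90.4. Among the 123 features with a tumor mean under -2, whose median tumor SD was 1.15, rbp2a was at percentile 67.5 and rbp4 at percentile 18.7. The tumor SD of rbp2a thus lay in the upper part of that of features as low as it, and its normal SD was at percentile 13.8 of them. The median normal SD of those features was 0.766, so they too varied more among tumors by these medians.

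**Figure D4:**
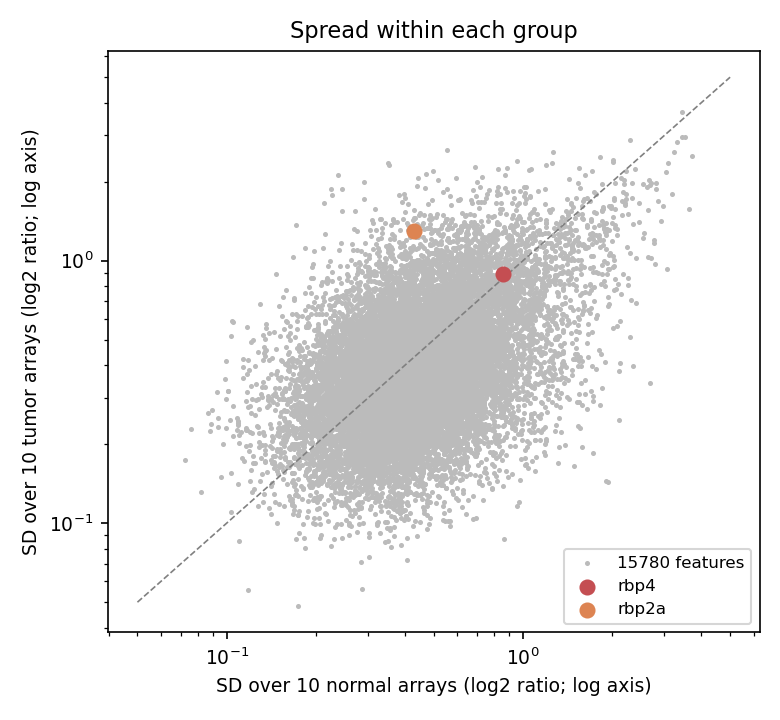
SD of the log2 ratio over the 10 tumor arrays (y axis) against that over the 10 normal arrays (x axis), both on log axes, for 15780 features in grey and the 2 carriers in colour; the dashed line marks equal spread. Rbp4 lies close to the line (0.89 and 0.86) and rbp2a above it (1.29 and 0.43).

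Normal liver was set against the reference, which is also normal liver RNA. This comparison shares the normal arrays with the one that drew attention to the genes. Rbp4 was below 0 on 8 of 10 normal arrays, with a mean of -0.86 ± 0.86 (SD, n = 10), or 1.81-fold less than the reference. Limma gave an SE of 0.26 and an adjusted p of 0.0176 over 15780 features, of which 25.0% passed in this comparison and 13.6% passed with normal liver lower. The low values were those of normal replicates 7, 10, 6 and 5 (-2.58, -1.59, -1.37 and -1.15), while replicates 1, 8 and 9 were within 0.11 of the reference. Without normal replicate 7 the mean was -0.66 and limma's adjusted p 0.0565. The call was also lost with quantile normalization (limma, adjusted p = 0.0578) and with array medians at 0 and equal spreads (adjusted p = 0.358).

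Rbp2a was above 0 on 8 of 10 normal arrays, at a mean of 0.38 ± 0.43 (SD, n = 10), or 1.30-fold the reference. Limma, which takes 1 spread from both groups, gave it an SE of 0.28 and an adjusted p of 0.356. An exact two-sided sign-flip permutation test on the 10 normal arrays alone, chosen after seeing the data, gave p = 0.0312 for rbp2a and 0.0137 for rbp4 (adjusted p = 0.0312 and 0.0273 over the 2 genes). The difference that chose the genes used these same normal arrays, and large decreases favour high normal values. These p-values are therefore not independent of the choice, and the share of all features passing this test is not given. Liver was always in Cy5 and the reference in Cy3, so a dye effect on a gene and a difference between liver and reference cannot be told apart. The order of levels was tumor, normal, reference for rbp4. For rbp2a it was tumor, reference, normal. The last 2 did not pass by limma with the spread of both groups (SE 0.28), while the SE from the normal arrays alone was 0.14.

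The named features most like each carrier were found by the Pearson correlation of log2 ratios over the 20 arrays, a measure that the gap between the groups dominates. For rbp4 they were gapdh (r = 0.92), wu:fj16a03 (0.91), apoa1a (0.89), the fatty acid transporter gene slc27a2a (0.89) and the glycine receptor subunit gene glrba (0.88). For rbp2a they were the glutathione transferase gene gstt1b (0.85), ndufaf8, whose product helps assemble respiratory complex I (0.84), glrba (0.83), tcn2, a carrier of cobalamin (0.83), and tmem170a (0.82). All 9 of these genes were lower in tumors by limma, by -3.63 (apoa1a) to -0.78 (tmem170a). They were picked for likeness to carriers whose groups did not overlap, so a lower level in tumors was largely fixed by the choice. Their count is therefore not set against the share of all features called. Once the dim share was fitted, which left 54 of all 15780 features called, 4 of the 9 kept the call (gapdh, apoa1a, slc27a2a and glrba). Among the 5355 other named features, rbp2a was at place 36 in likeness to rbp4, and rbp4 at place 14 in likeness to rbp2a (r = 0.78). The gap between the groups, for which both genes were taken up, dominates these places as well. With the group means subtracted their correlation was -0.15, at places 4129 and 4239.

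Once the mean of its group was subtracted from each array, other genes led. For rbp4 they were the Wnt receptor gene fzd7b (r = 0.76), the junction adhesion gene jam3b (0.70), the kinase gene pkmyt1 (0.69), mical3b (0.68) and tdrd5 (0.67). For rbp2a they were the DNA repair gene xrcc3 (0.70), ptpdc1b (0.68), the small heat shock protein gene cryaba (0.63), grap2b (0.63) and nelfb (0.62). None of the 10 was among the genes of the preceding order. Only 1 of them passed the threshold between tumor and normal liver, pkmyt1 at -0.41 ± 0.13 (adjusted p = 0.0411 with limma), and that call was lost when 1 array was left out in 16 of 20 cases, with a highest adjusted p of 0.0736. These correlations are a description over 20 arrays that share 1 reference.

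Retinol in liver is bound, taken up, esterified, oxidised to retinal and retinoic acid, and sensed by nuclear receptors. Of 28 measured genes of these steps 2 fell (7.14%) and 0 rose in tumors, against 10.8% of all features called by limma, 4.94% lower and 5.91% higher. Their median difference was -0.17. Of 3 measured genes of retinoid carriage limma called 0, with 1 of them under an unadjusted p of 0.05 and 0 in the rank-sum test. Stra6l, known in mouse as the gene of a receptor for plasma retinol-binding protein in liver and intestine, was at 0.39 ± 0.22 in normal livers and -0.14 ± 0.75 in tumors (SD, n = 10), a difference of -0.53 ± 0.24 (adjusted p = 0.156 with limma). The retinoic acid binding protein gene crabp2a had a difference of -0.20 ± 0.15 and rbp3, a retinoid carrier of the eye, one of -0.17 ± 0.21.

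Of 15 enzymes of retinoid and carotenoid metabolism 2 fell and 0 rose by limma, with a median of -0.28. Without adjustment 6 were under 0.05, 3 of them higher. The rank-sum test called 4, of which 1 was higher, and 1862 of all 15780 features. Both that fell are alcohol dehydrogenase genes, whose products act on many alcohols besides retinol. Adh8a ran from 1.18 to 2.99 on the normal arrays and from -5.13 to 1.17 on the tumor arrays, all below the normal ones, and was 19.9-fold higher in normal liver (adjusted p = 0.000123 with limma). Adh5 changed by -0.74 ± 0.18 (adjusted p = 0.0111 with limma). The genes of the carotenoid-cleaving enzymes did not pass, with bco2l at -0.97 ± 0.34 (adjusted p = 0.0682 with limma) and bco1 at -0.41 ± 0.24. Among the retinol and retinal oxidoreductases, rdh12 differed by 0.74 ± 0.28, rdh10b by 0.40 ± 0.19 and dhrs3a by 0.73 ± 0.50. Rdh14a and rdh14b went the other way, by -0.29 ± 0.16 and -0.28 ± 0.14 (adjusted p = 0.269 and 0.207 with limma). None of these genes passed in the main fit. Limma called rdh12 higher without tumor replicates 1 and 10 (adjusted p = 0.0186) and with equal medians and spreads (0.0471). Without normal replicate 8 and tumor replicate 10 it called rdh12 (0.0491) and rdh10b (0.0374) higher. With the replicate number as a block it called bco2l lower (0.0404). Retsatl, related to retinol saturase, differed by 1.91 ± 0.82, and its normal arrays ran from -5.90 to 1.87. With 1 array left out, limma called bco2l lower in 1 run (adjusted p = 0.00910). It called rdh12 (0.0353), rdh10b (0.0240) and retsatl (0.0342) higher in 1 run each. The enzyme that makes retinoic acid, aldh1a2 (0.47 ± 0.40), and those that degrade it, cyp26a1 (0.10 ± 0.24) and cyp26b1 (0.86 ± 0.45), did not pass either.

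Of 10 retinoic acid receptors, retinoid X receptors and their cofactors and targets limma called 0, with a median of -0.04. Of these, 3 were under an unadjusted p of 0.05, and the rank-sum test called 0. The retinoic acid receptor genes raraa and rarab had differences in opposite directions, 0.49 ± 0.21 and -0.32 ± 0.14, with adjusted p = 0.133 and 0.141 with limma. Without normal replicate 8 and tumor replicate 10 limma called raraa higher (adjusted p = 0.0341). With 1 array left out, raraa and rarab each passed in 1 run. A further receptor gene, rarga, had a difference of -0.13 ± 0.13. Rxrab, a partner of these receptors, had a difference of -0.52 ± 0.25. Tgm2b, related to a transglutaminase that retinoic acid induces in human cells, had a difference of 1.53 ± 0.78 (adjusted p = 0.219 with limma) and stood at 8.32 on tumor replicate 2, its highest value.

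Relatives of the 2 carriers by protein family formed the last list. Of 7 measured members 5 fell and 0 rose by limma, against 4.94% of all features lower and 5.91% higher, and their median was -1.52. The rank-sum test, which called 1862 of all 15780 features, called 4 lower and 0 higher, and without adjustment 0 were higher at 0.05. All 3 measured lipocalin genes, the family of rbp4, fell by limma. They were ptgdsa, a prostaglandin D synthase (-1.55 ± 0.30, adjusted p = 0.00201), c8g, a subunit of complement (-1.52 ± 0.35, adjusted p = 0.00751), and apom, a lipid carrier of lipoproteins (-1.41 ± 0.39, adjusted p = 0.0241). Apom missed the threshold when tumor replicate 10 was left out together with normal replicate 8 (limma, adjusted p = 0.0519) or with tumor replicate 1 (0.0677), and with equal medians and spreads (0.0510). In the family of rbp2a, fabp10a and fabp3 (-1.91 ± 0.33, adjusted p = 0.00108 with limma) fell. Fabp7a had a difference of 0.44 ± 0.53 and fabp2, the intestinal member, one of -0.56 ± 0.71. Without tumor replicates 1 and 10 limma called fabp7a higher in tumors (adjusted p = 0.0336). Fabp10a is a hepatocyte marker as well and was counted above. With the dim share as a covariate 0 of the 35 genes in these lists passed, against 54 of all 15780 features. The cause was not tested.

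**Figure D5:**
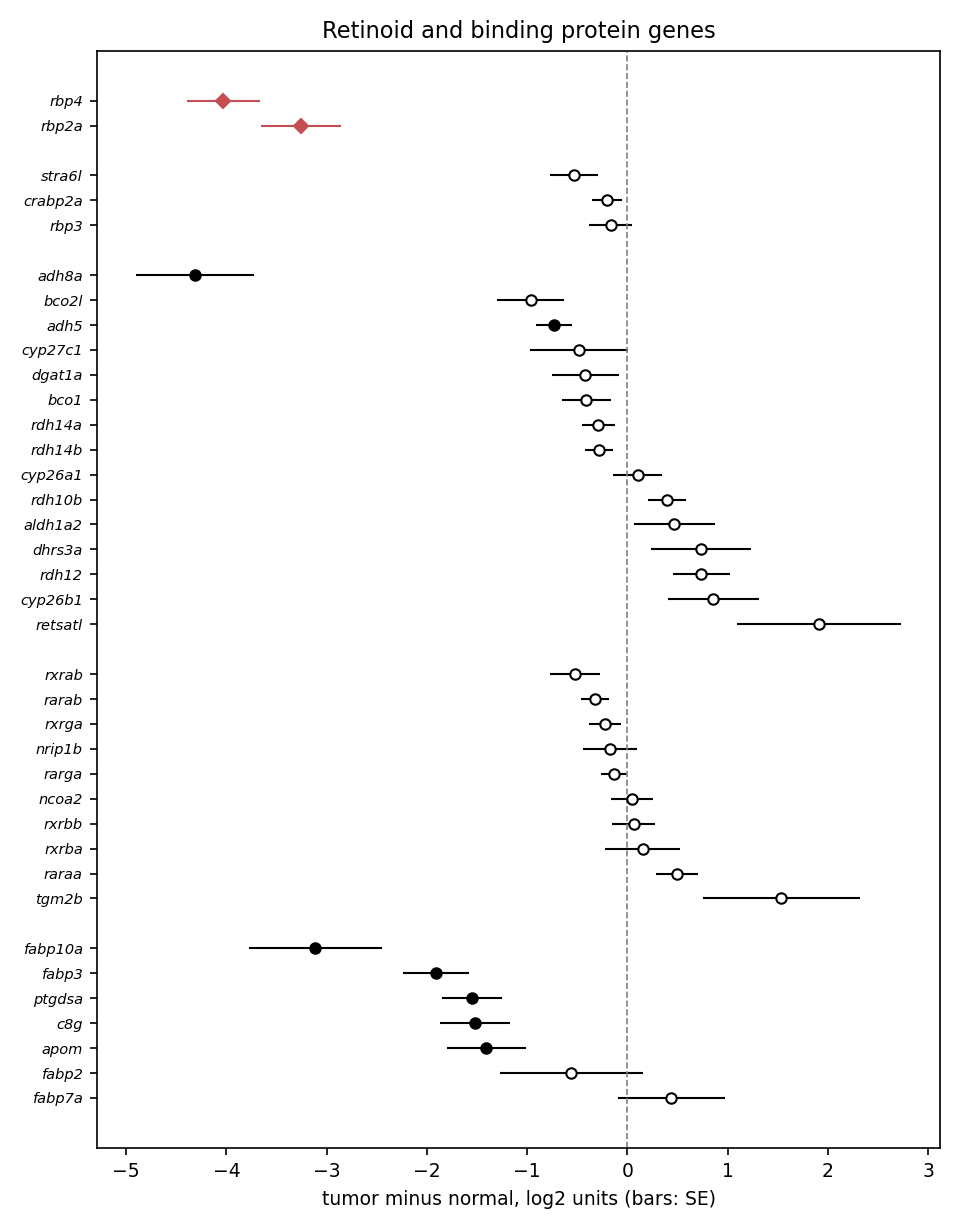
Tumor minus normal difference in log2 units with its SE (n = 10 per group) for rbp4 and rbp2a (red, no test) and, from top to bottom, 3 carriage genes, 15 enzymes, 10 receptors and cofactors and 7 family relatives. Filled black points passed the adjusted threshold of limma: adh8a, adh5, fabp10a, fabp3, ptgdsa, c8g and apom, all lower in tumors.

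Since rbp2a is known from intestine, markers of intestine were read on the same arrays. Of 4 measured ones limma called 0 and the rank-sum test 0, while 1 was higher in tumors at an unadjusted p of 0.05. Their mean ran from -1.10 to 2.98 on the normal arrays and from -0.22 to 2.39 on the tumor arrays, so the groups overlapped widely. Normal replicate 4, at the lowest of these means, had rbp2a at 0.28, and normal replicate 3, at the highest, had it at 0.93. Other arrays ran the other way. Normal replicate 8 had a high mean of 1.41 with the lowest normal rbp2a, -0.33. Normal replicate 2 had a mean of -0.38 with rbp2a at 0.75. The relation of rbp2a to this mean was not tested. Villin, vil1, a protein of the brush border, differed by 0.60 ± 0.56 and the claudin gene cldn15la by 1.72 ± 0.63 (adjusted p = 0.0788 with limma). The remaining markers, fabp2 and slc15a1b, had differences in the other direction, -0.56 ± 0.71 and -0.23 ± 0.24. Limma called cldn15la higher in tumors with quantile normalization (adjusted p = 0.0420), equal spreads (0.0113) and the replicate number as a block (0.0380). With 1 array left out it did so in 2 runs. The part of intestinal RNA in the level of rbp2a was not tested.

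Other tissue markers differed between the groups as follows, by limma, which called 5.91% of all features higher and 4.94% lower. Of 6 bile duct genes 1 rose, epcam (1.32 ± 0.33), and of 10 stroma genes 3 rose, postna (0.63 ± 0.16), col5a1 (1.16 ± 0.32) and col5a2a (1.05 ± 0.31). Hand2 (-0.43 ± 0.19) and desma (-0.31 ± 0.16) of that list went the other way without passing. Limma called 1 stroma gene lower with quantile normalization, with equal spreads and without normal replicate 8 and tumor replicate 10. Without normal replicate 1 or 9, or tumor replicate 1 or 2, 2 of the 3 rises kept the call. Of 5 erythrocyte genes 1 fell, hbae3 (-0.44 ± 0.14), and of 8 ovary genes zpcx and org rose and nanos3 fell. Limma and the rank-sum test called 0 of 11 leukocyte, 0 of 3 endothelium and 0 of 4 exocrine pancreas genes. At an unadjusted p of 0.05 these lists held 1, 1 and 3 genes, the last 3 lower in tumors. With quantile normalization or equal spreads limma called these 3 pancreas genes lower. Once the dim share was fitted, limma called 54 of all 15780 features. In that fit 0 genes of the bile duct, stroma, erythrocyte and ovary lists passed. Hbae3 also lost its call with either pair of arrays left out. In most runs with 1 array left out, zpcx and org lost their calls, and so did hbae3, while nanos3 kept its call in all of them. The mean of the pancreas markers ran from -3.28 to 2.71 on the normal arrays and from -4.91 to 0.90 on the tumor arrays. The part of these other cells in the levels of rbp4 and rbp2a was not tested.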

How the data were processed

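RNA of zebrafish liver tumors and normal livers was measured on 20 arrays of 2 colours, 10 per group by the letters T and C in the array titles. Whether each array stands for a separate fish is not stated. The deposited table holds log2 ratios, in the authors' processing. The sources used here do not state their background correction or normalization. The base was read from the values: 2.55% to 7.87% of values on the normal arrays equalled, within 0.00011, the log2 of a quotient of whole numbers no larger than 10, against 0.200% to 0.388% at shifted constants. The share of such values on an array is called its dim share. On every normal array base 2 gave a larger share than base e or base 10. On tumor replicates 4, 5, 6 and 8 base 10 gave a larger share than base 2 (1.27% against 0.654% on replicate 4). On tumor replicate 3 the 2 shares were equal, so these 5 arrays do not show the base by themselves. Signal brightness is not in the table, and the number of arrays limits the precision. The direction, sample over reference, was taken as likely from the channel order in the labels.

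Of 16512 probes 6088 had 1 symbol, 75 several and 10349 none. The Entrez numbers of 6019 were found in RefSeq (assembly GRCz12tu, names only), which updated 1 symbol. Probes of 1 symbol were averaged, giving 15780 features. No reference sequence was used here, so none is printed.

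Both groups entered 1 linear model with moderated variances (limma 3.58.1, R 4.3.3). Its p-values were adjusted by Benjamini-Hochberg over all features at a threshold of 0.05. Permutation tests used 100000 resamples in Python 3.11.15 with scipy 1.17.1, and 10 relations and 2 spreads formed the families that were adjusted. The fit was tested on simulated data. The members, the lists and the tests were chosen with earlier results of these data known. The genes named are rbp4 and rbp2a, members of the 4 retinoid and binding protein lists, of each marker list the first measured gene and those with the 2 smallest p, the 5 features most like each carrier by either measure, and the 2 next to each in the order of the difference. Some of these are given as counts only. Hnf4a, hp, slc15a1b, hand2, desma, col5a2a and zpcx were named after their values were seen.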

Additional observations from a re-analysis of the deposited data

Results flagged for a closer look

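Single arrays that stood far from the other 9 of their group were sought for rbp4, rbp2a, 35 related genes and 9 marker means, in 92 groups of 10 arrays. An array counted when its gap to the next value, as a share of the range, passed the critical value of Dixon's test. By that test chance gives about 1 such array in 20 groups, if values are normally distributed and groups independent. In all, 14 were found, none of them for rbp4 or rbp2a. The groups share the same 20 arrays, and the share of all features with such an array is not given. Whether 14 exceeds chance was therefore not tested. Tumor replicate 9 was highest for bco2l (1.97, others -0.79 to 0.10) and rarab (0.91, others -0.25 to 0.33) and lowest for fabp2 (-3.33, others -0.83 to 1.98). Tumor replicate 10 was lowest for rbp3 (-0.96, others -0.30 to 0.13) and highest for rxrba (1.74, others -1.77 to 0.07) and for the leukocyte mean (2.46, others 0.09 to 1.35). Tumor replicate 2 was highest for tgm2b (8.32, others -0.50 to 3.46) and lowest for cyp27c1 (-3.80, others -1.04 to 2.09). Normal replicate 1 was highest for nrip1b (1.40, others -1.60 to -0.42) and tgm2b (1.47, others -0.51 to 0.21) and lowest for cyp26b1 (-4.58, others -0.07 to 0.66). Normal replicate 3 was highest for bco1 (2.02, others -0.36 to 0.58), normal replicate 8 for rdh10b (0.90, others -1.13 to -0.08), and normal replicate 6 was lowest for dhrs3a (-2.42, others -0.10 to 0.83).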

How the results depend on the processing

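The tumor minus normal difference kept its sign for both carriers under every alternative run. For rbp4 it ran from -4.23 to -3.89 with 1 array left out, and it was -5.72 with array medians at 0 and equal spreads. Subtracting the hepatocyte mean, chosen after seeing the data, gave -2.36 for rbp4 and -1.58 for rbp2a, and rbp2a ran from -3.45 to -3.02 with 1 array left out. Rbp4 in normal liver against the reference lost its call with equal spreads (-0.93, limma adjusted p = 0.358) and with quantile normalization (-0.84, 0.0578). With 1 array left out it ran from -0.96 to -0.66, and lost the call without normal replicate 7. Rbp2a (0.38) did not pass by limma (adjusted p = 0.356 in the main setting). It was under 0.05 only in the sign-flip test, chosen after seeing the data and adjusted over 2 genes.

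Features called between tumor and normal numbered 1712. They became 2733 with equal spreads, 2622 with quantile normalization and 54 once the dim share was fitted, where 0 of the retinoid and related genes passed against 7, and the cause was not tested. Same-numbered arrays correlated at -0.141 to 0.121 in their deviations from the group means, so the numbers were not taken to pair them. With the replicate number as a block 1253 features were called, and the differences stayed at -4.03 and -3.25.

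Relations that changed sign were all short of the adjusted threshold in the main setting. Rbp4 with rbp2a in tumors became 0.46 with equal spreads and -0.252 to 0.0842 with 1 array left out. Rbp2a with the hepatocyte mean in normal livers became 0.02 (0.0188) with medians at 0, and rbp4 became -0.18 without the 2 farthest arrays. Rbp2a with the dim share became -0.24 in normal livers without them, and in tumors -0.37 by Spearman and -0.77 without them. The spread difference of rbp4 ran from -0.0906 to 0.185 with 1 array left out. Signal brightness, which limits low ratios, is not in the table.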
